A study of Mus musculus with 15 samples.

Results

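The 9 genes described here are the ligands, receptors and antagonist of the interleukin-1 (IL-1) family that were listed by symbol: Il1a, Il1b, Il18, Il1rn, Il1r1, Il1rl1, Il1rl2, Il1rap and Il1r2. All 9 had a row among the 53465 genes of the deposited count matrix, and 8 of them were among the 13938 genes that passed the filter on low counts. Il1r2 did not pass and is given by its counts. The list was chosen by symbol and selected on 1 measured pattern, the opposite IL-6 fold changes of Il1r1 and Il1rl1 in these libraries, so those fold changes are described here without a test.

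RNA was sequenced from mouse bone marrow-derived macrophages (BMDMs), 3 libraries in each of 5 groups. The cells came from mice 8 to 12 weeks old, of 1 genotype in every group. Marrow was grown for 7 days in medium with 10% serum and M-CSF at 20 ng/ml, the growth factor that drives marrow cells to become macrophages. The cells were then left untreated (control) or given IL-4 (10 ng/ml), IL-4/IL-6, IL-13 (40 ng/ml) or IL-13/IL-6 for 24 h, with IL-6 at 40 ng/ml in both combinations. The sample titles give no dose, and the study's sequencing methods name only IL-4 and IL-4/IL-6. The doses of the IL-13 groups are those it gives for other assays. There was no group with IL-6 alone, so an IL-6 difference is always one on top of IL-4 or IL-13. The study describes the libraries as biological replicates, the labels give no animal for each, and p-values measure the spread between these libraries.

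IL-1 alpha, IL-1 beta and IL-18 are inflammatory cytokines of macrophages, and IL-1 beta and IL-18 are cut to their active forms by caspase-1 in inflammasomes. IL-1 alpha and IL-1 beta signal through IL-1R1, IL-33 through ST2 (encoded by Il1rl1) and the IL-36 cytokines through the receptor encoded by Il1rl2, and these receptors all share the co-receptor IL-1RAcP (encoded by Il1rap). IL-1 receptor antagonist (Il1rn) occupies IL-1R1 without signaling, and IL-1R2 is a decoy receptor that binds IL-1 and does not signal.

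Library totals lay between 17001352 and 18918686 counts, and the spread between replicates, as biological coefficient of variation, was 4.49% in control, 4.54% in IL-4, 14.9% in IL-4/IL-6, 10.9% in IL-13 and 7.39% in IL-13/IL-6. None of the 7 macrophage markers was at 3 counts or fewer in any group. Retnla, which IL-4 and IL-13 induce, had no count in control and means of 728, 399, 51.1 and 23.1 normalized CPM in IL-4, IL-4/IL-6, IL-13 and IL-13/IL-6, and Socs3, an IL-6 target, spanned 121 to 143 once IL-6 joined IL-4, against 1.28 to 2.24 under IL-4 alone. The control libraries also held markers of other marrow cells that were close to absent elsewhere. The summed level of 8 neutrophil and granulocyte precursor genes was 460 to 546 CPM in control and between 0.979 and 2.14 in every treated library. Values below are library-scaled counts (CPM, normalized by TMM) unless FPKM, a level per transcript length, is named.

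The receptor genes other than Il1rap lie in one cluster on chromosome 1 (GRCm38), all on the plus strand, in the order Il1r2 (chr1:40074079-40125231), Il1r1 (chr1:40225080-40317257), Il1rl2 (chr1:40324610-40367562) and Il1rl1 (chr1:40429570-40465415). Il1rn (chr2:24336853-24351494) is on the plus strand of chromosome 2, where Il1a (chr2:129299610-129309972) and Il1b (chr2:129364570-129371139) are neighbours on the minus strand. Il1rap (chr16:26581704-26730117) and Il18 (chr9:50554827-50581840) are on the plus strand of chromosomes 16 and 9.

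Promoter windows are shown for the receptor genes of the cluster that were expressed and for the antagonist and ligand whose windows held a STAT6 match, since IL-4 and IL-13 act through STAT6 and IL-6 acts through STAT3. The windows run from 250 bases before to 50 bases after a RefSeq start site (GRCm38.p6), and all 9 genes were matched to 13 such windows. Both strands were searched for TTCNNNNGAA (STAT6 spacing, in 6.95% of all 32851 windows), TTCNNNGAA (STAT3 spacing, 8.3%), TTGCNNAA (C/EBP, 10.8%) and TGANTCA (AP-1, 7.81%), and capitals mark each match. GGGNNNNNCC (NF-kB, 50.8%) and TGACGTCA (CRE, 1.79%) were also searched and are not capitalized, a choice made after their matches were seen. The windows printed are Il1r1 at chr1:40224830-40225129, Il1rl1 at chr1:40429320-40429619, Il1rl2 at chr1:40324339-40324638, Il1rn at chr2:24345041-24345340 and Il18 at chr9:50554450-50554749, all on the plus strand.
Il1r1: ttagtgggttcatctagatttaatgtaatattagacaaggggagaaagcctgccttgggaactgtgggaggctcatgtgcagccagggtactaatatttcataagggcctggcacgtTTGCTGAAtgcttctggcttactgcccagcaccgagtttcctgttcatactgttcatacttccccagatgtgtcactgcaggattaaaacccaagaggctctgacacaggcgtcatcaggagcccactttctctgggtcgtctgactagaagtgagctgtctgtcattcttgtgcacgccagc
Il1rl1: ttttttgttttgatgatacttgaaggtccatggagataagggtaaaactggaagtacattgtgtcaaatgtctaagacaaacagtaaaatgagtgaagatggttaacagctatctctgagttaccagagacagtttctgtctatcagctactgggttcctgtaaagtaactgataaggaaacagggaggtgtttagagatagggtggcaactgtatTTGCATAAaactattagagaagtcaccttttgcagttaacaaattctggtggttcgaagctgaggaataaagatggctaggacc
Il1rl2: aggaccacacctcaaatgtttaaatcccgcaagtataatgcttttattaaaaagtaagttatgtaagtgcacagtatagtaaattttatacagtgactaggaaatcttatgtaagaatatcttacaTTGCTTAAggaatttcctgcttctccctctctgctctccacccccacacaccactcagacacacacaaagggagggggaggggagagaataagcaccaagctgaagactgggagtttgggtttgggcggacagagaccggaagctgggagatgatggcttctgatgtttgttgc
Il1rn: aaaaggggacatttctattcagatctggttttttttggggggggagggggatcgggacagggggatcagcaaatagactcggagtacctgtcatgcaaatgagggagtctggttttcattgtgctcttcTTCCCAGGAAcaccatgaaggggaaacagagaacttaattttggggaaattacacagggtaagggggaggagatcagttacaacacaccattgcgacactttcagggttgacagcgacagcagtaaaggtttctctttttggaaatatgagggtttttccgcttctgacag
Il18: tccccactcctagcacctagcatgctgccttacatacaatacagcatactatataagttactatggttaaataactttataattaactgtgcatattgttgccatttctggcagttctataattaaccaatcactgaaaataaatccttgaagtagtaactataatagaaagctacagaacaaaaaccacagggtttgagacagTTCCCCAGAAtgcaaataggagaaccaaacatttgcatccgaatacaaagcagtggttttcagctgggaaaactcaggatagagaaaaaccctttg

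The printed windows of Il1r1, Il1rl1 and Il1rl2 each held the C/EBP letters, at positions -133, -34 and -124 relative to the start site, and the 3 windows had no match to either STAT spacing. The windows of Il1rn and Il18 held the STAT6 spacing, as TTCCCAGGAA at -121 and TTCCCCAGAA at -46. Among the windows not printed, that of Il1r2 held the STAT3 spacing (TTCAAGGAA at -111) that of Il1a the AP-1 letters (TGACTCA at -12), and the other windows of Il1rn held the AP-1 letters (TGAGTCA at -141) and the same STAT6 match counted from another start site (-201). Those of Il1b and Il1rap and the further windows of Il1r1 and Il1rl1 held none of these 4. The NF-kB letters were in the windows of Il1rap, in every window of Il1rn and in the further window of Il1r1, and the CRE letters were in none of the 13. Il1r1, Il1rl1 and Il1rn have further start sites, and gene counts do not tell which was used.

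Per transcript length, the receptor chains changed order with the cytokine. In control the FPKM was 0.0925 ± 0.0214 (SD, n = 3) for Il1r1, 0.189 ± 0.0241 for Il1rl1, 2.42 ± 0.0493 for Il1rl2 and 0.859 ± 0.126 for Il1rap. With IL-4, Il1rl1 was highest at 8.12 ± 0.345 and Il1r1 lowest at 0.780 ± 0.123, with Il1rl2 at 3.49 ± 0.131 and Il1rap at 1.77 ± 0.0268. With IL-4/IL-6 the highest and the lowest had changed places: Il1r1 stood at 8.27 ± 1.18, Il1rl2 at 6.69 ± 1.36, Il1rap at 4.30 ± 0.611 and Il1rl1 at 0.625 ± 0.197. The ranges of Il1r1 and Il1rl2 overlapped there, from 6.98 to 9.30 and from 5.12 to 7.61. With IL-13 the means were 0.243 ± 0.0631 for Il1r1, 2.08 ± 0.458 for Il1rl1, 1.57 ± 0.237 for Il1rl2 and 1.45 ± 0.228 for Il1rap. With IL-13/IL-6 Il1rl2 (2.74 ± 0.105) and Il1rap (2.67 ± 0.140) lay above Il1r1 (0.663 ± 0.0239) and Il1rl1 (0.463 ± 0.283), and the ranges overlapped within each of those pairs.

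**Figure D1:**
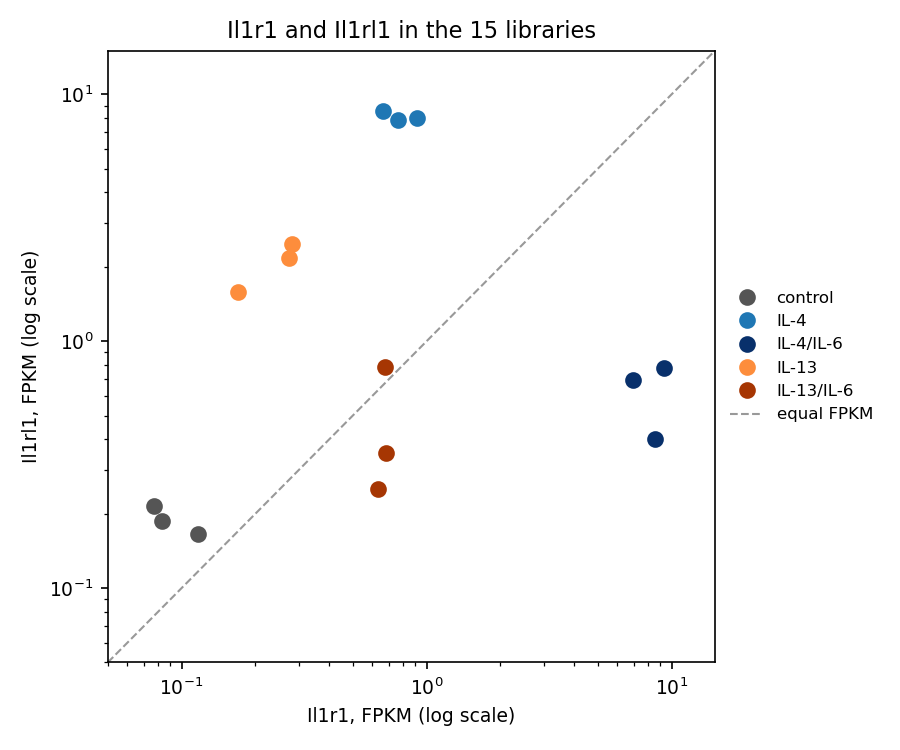
FPKM of Il1r1 (horizontal) and Il1rl1 (vertical) in each of the 15 libraries, both on log axes, with color for the group and a dashed line where the 2 genes have equal FPKM. The control, IL-4 and IL-13 libraries lie above the line, the IL-4/IL-6 libraries lie far below it, and 1 of the 3 IL-13/IL-6 libraries lies above it.

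The first comparisons ask what IL-4 and IL-13, which share a receptor chain and are the classical inducers of alternatively activated macrophages, did to the family on their own. Against control, IL-4 raised 4 and lowered 3 of the 8 tested genes in the quasi-likelihood test of edgeR, adjusted over all genes by Benjamini-Hochberg, while 68% of all tested genes passed the same test (32.1% higher and 35.9% lower). IL-13 raised 3 and lowered 3, against 60.1% of all tested genes (29% higher and 31.1% lower). Il1r1 and Il1rl1, picked from libraries that enter these tests, are among the raised genes with both cytokines. The 4 receptor chains Il1r1, Il1rl1, Il1rl2 and Il1rap were the genes that rose with IL-4, and the ligands Il1a and Il18 and the antagonist Il1rn fell. Over all tested genes, the libraries of the compared groups did not overlap for 76.2% of genes with IL-4 and 67.1% with IL-13, so separation from control was common.

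Il1rl1, the IL-33 receptor ST2, was at 1.41, 1.11 and 1.23 normalized CPM in the 3 control libraries, at 53.6, 54.2 and 58.3 with IL-4, and at 10.8, 16.5 and 14.5 with IL-13. The 3 groups did not overlap, with IL-4 highest and control lowest. The log2 fold change over control was 5.46 (SE 0.309, adjusted p = 8.87e-11) with IL-4 and 3.47 (SE 0.325, adjusted p = 8.1e-08) with IL-13. IL-13 at its dose gave less than IL-4 at its own, by 1.99 on the log2 scale (log2 fold change -1.99, SE 0.229, adjusted p = 1.06e-05). The IL-4 and IL-13 libraries also served to pick Il1rl1 and Il1r1, so the p-values of both genes are not independent of that choice.

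Il1r1, the signaling IL-1 receptor, was at 0.468, 0.720 and 0.504 CPM in control (9 to 13 counts), 4.81, 5.70 and 4.20 with IL-4 and 1.07, 1.74 and 1.70 with IL-13. Again the groups did not overlap and stood in the order IL-4, IL-13, control. The log2 fold change was 3.11 with IL-4 (SE 0.224, adjusted p = 2.03e-09), 1.41 with IL-13 (SE 0.272, adjusted p = 0.000272) and -1.70 between IL-13 and IL-4 (SE 0.185, adjusted p = 5.8e-06).

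Il1rl2, the IL-36 receptor, moved in opposite directions with the 2 cytokines. It was at 15.7, 16.2 and 15.4 CPM in control, 24.1, 22.4 and 24.1 with IL-4 and 8.72, 11.3 and 11.3 with IL-13, so the control libraries lay between the other groups without overlap. It rose with IL-4 (log2 fold change 0.58, SE 0.117, adjusted p = 0.000344) and fell with IL-13 (-0.60, SE 0.124, adjusted p = 0.000502). The difference between IL-13 and IL-4 was itself called, at -1.17 (SE 0.121, adjusted p = 3.06e-06).

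Il1rap, the shared co-receptor, was at 7.86, 9.58 and 10.6 CPM in control, 19.6, 20.1 and 20.0 with IL-4 and 14.7, 18.8 and 14.6 with IL-13, and all treated libraries were above all controls. It rose by 1.09 on the log2 scale with IL-4 (SE 0.124, adjusted p = 6.25e-07) and by 0.78 with IL-13 (SE 0.125, adjusted p = 4.41e-05). The libraries of IL-13 lay below those of IL-4, and that difference of -0.32 (SE 0.117) was not called (adjusted p = 0.0891), though it was without IL-13 replicate 2 (-0.44, adjusted p = 0.0283) or without IL-4/IL-6 replicate 2 (-0.32, adjusted p = 0.0413). Of the 8 genes tested between IL-13 and IL-4, 1 was higher and 3 were lower, beside 12.8% of all tested genes (7.61% higher and 5.16% lower), and 31.4% did not overlap.

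**Figure D2:**
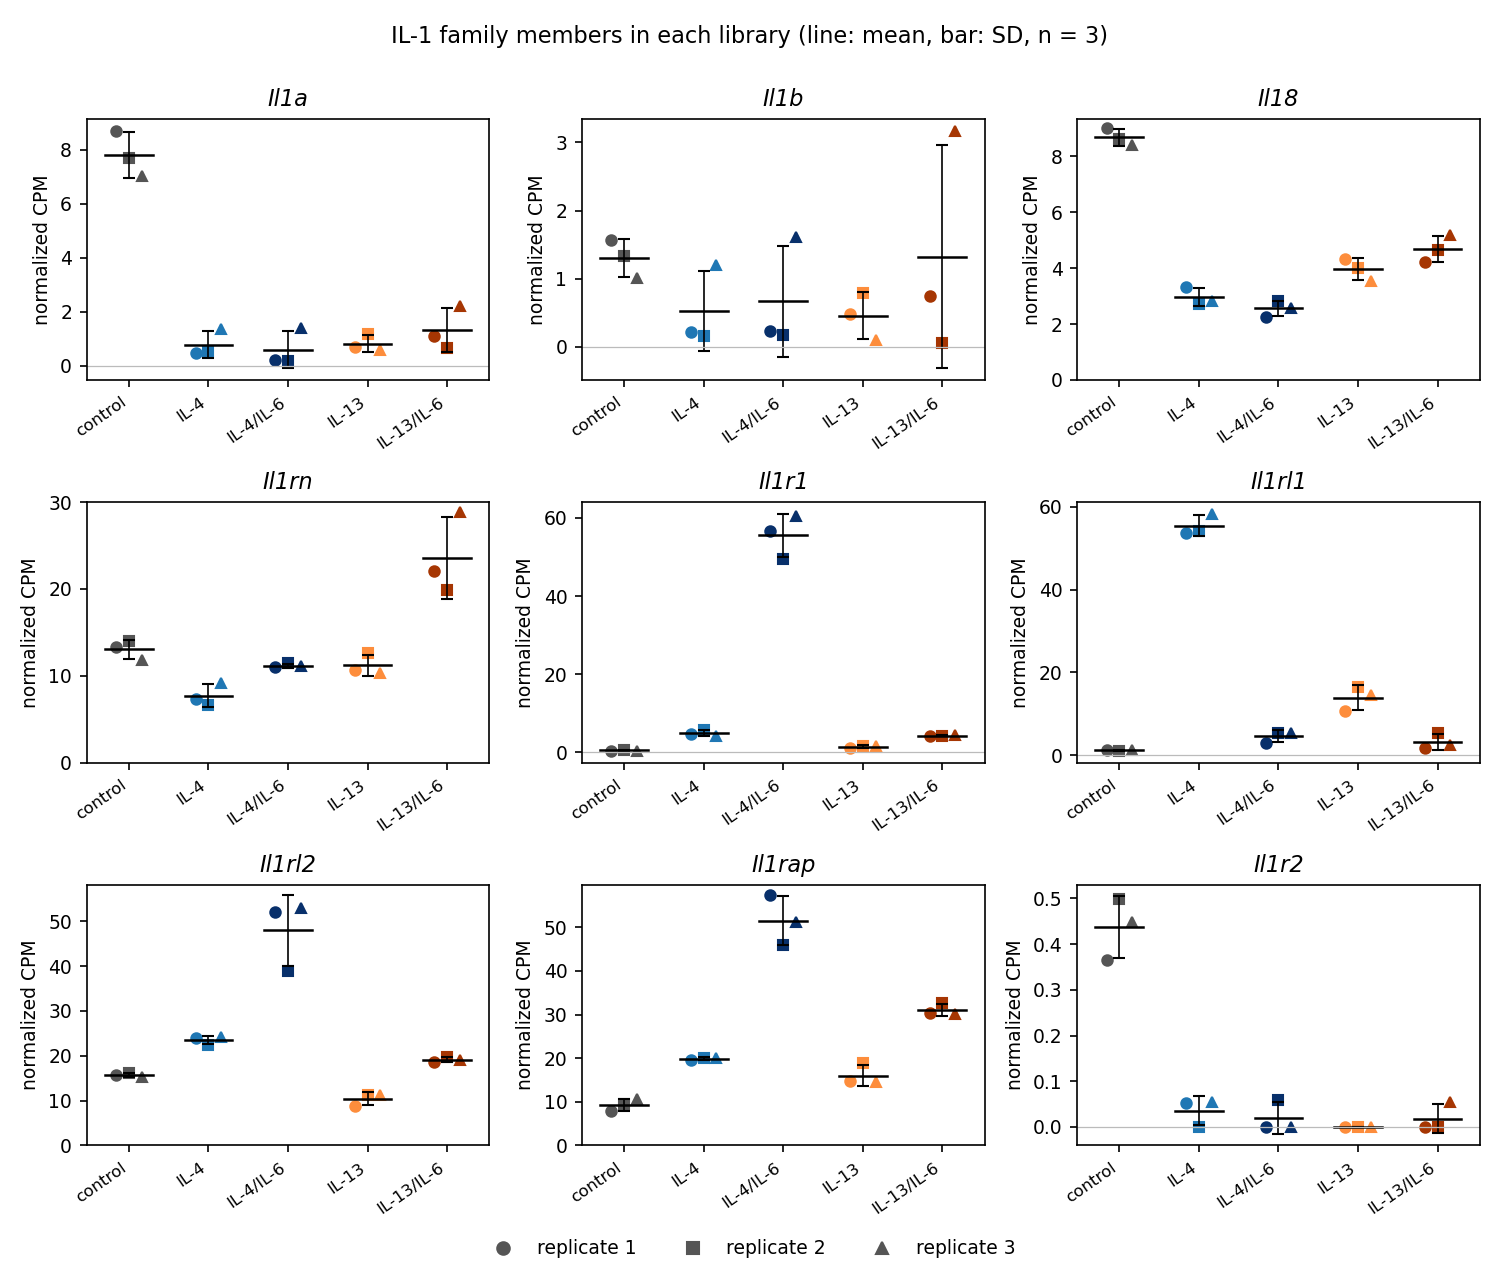
Normalized CPM of the 9 IL-1 family genes (vertical axis, a separate scale for each gene) by group, with 1 marker for each library shaped by its replicate number, a line at the mean and a bar of 1 SD (n = 3). Il1r1 is highest in the IL-4/IL-6 libraries (49.5 to 60.5), Il1rl1 in the IL-4 libraries (53.6 to 58.3), and Il1a, Il18 and Il1r2 are highest in the controls.

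The ligands went the other way. Il1a was at 8.69, 7.69 and 7.00 CPM in control, 0.481, 0.498 and 1.36 with IL-4 and 0.696, 1.18 and 0.566 with IL-13, with every treated library far below the controls. It fell by 3.31 on the log2 scale with IL-4 (SE 0.475, adjusted p = 1.03e-05) and by 3.26 with IL-13 (SE 0.472, adjusted p = 1.41e-05). Il18 was at 9.005, 8.64 and 8.41 CPM in control, 3.32, 2.71 and 2.84 with IL-4 and 4.34, 3.995 and 3.55 with IL-13, again without overlap with control. Its fall was 1.55 on the log2 scale with IL-4 (log2 fold change -1.55, SE 0.144, adjusted p = 5.18e-08) and 1.13 with IL-13 (-1.13, SE 0.138, adjusted p = 2.1e-06). In FPKM Il18 was the highest of the 3 ligands in control, at 8.80 ± 0.332 against 4.13 ± 0.459 for Il1a and 0.712 ± 0.153 for Il1b.

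Il1b was scarce and uneven. Its counts were 30, 24 and 18 in control, 4, 3 and 22 with IL-4, 4, 3 and 28 with IL-4/IL-6, 9, 14 and 2 with IL-13 and 13, 1 and 57 with IL-13/IL-6. Replicate 3 held the highest count of IL-4, of IL-4/IL-6 and of IL-13/IL-6, and the lowest of control and of IL-13. The log2 fold change was -1.30 with IL-4 (SE 0.943, adjusted p = 0.233) and -1.52 with IL-13 (SE 0.965, adjusted p = 0.186), neither called. Fitted on only the 2 groups compared, both were called (-1.26, adjusted p = 0.0125, and -1.50, adjusted p = 0.0153). Without all 5 replicate 3 libraries, a setting chosen after the counts were seen, it was -2.87 with IL-4 (adjusted p = 0.00582).

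The antagonist Il1rn was at 13.3, 14.0 and 11.8 CPM in control, 7.33, 6.69 and 9.16 with IL-4 and 10.7, 12.6 and 10.3 with IL-13. The IL-4 libraries lay below the controls and the IL-13 libraries overlapped them. It fell by 0.75 on the log2 scale with IL-4 (SE 0.150, adjusted p = 0.000291), and the value with IL-13 was -0.22 (SE 0.145, adjusted p = 0.202). It was higher with IL-13 than with IL-4 by 0.53 (SE 0.152, adjusted p = 0.0276), a call lost without IL-4 replicate 1 (adjusted p = 0.0978), IL-4 replicate 2 (0.13) or IL-13 replicate 2 (0.132).

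The decoy receptor Il1r2 had 7, 9 and 8 counts in the control libraries and at most 1 in any treated library. With the treated groups set at a floor of 3 counts per library, it was at least 2.68-fold lower with IL-4, 2.71-fold with IL-13, 2.52-fold with IL-4/IL-6 and 2.61-fold with IL-13/IL-6. Il1f9, the gene of the IL-36 gamma ligand, had the same shape, with 26, 18 and 22 counts in control and at most 2 elsewhere, at least 7.31-fold lower with IL-4. The other 5 ligand genes of the family that were found in the matrix, Il33 among them, had no count in any library.

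The falls of Il1a, Il18, Il1r2 and Il1f9 from control to the treated groups went with several, though not all, marker lists of other marrow cells. Of the 8 neutrophil and granulocyte precursor genes, 6 were at 3 counts or fewer per library with IL-4, 3 of them at 0. The sum of 5 dendritic cell genes was 20.5 to 22.8 CPM in control and 0.169 to 1.04 in treated libraries, with 2 genes at 0 with IL-4. The 9 mast cell and basophil genes summed to 17.7 to 19.3 in control and at most 2.19 elsewhere, 6 stromal genes to 16.6 to 21.4 and at most 0.375, and 3 B cell genes to 4.43 to 5.09 and at most 0.900. The sums of 2 further lists did not fall throughout. That of 4 endothelial genes was 22.1 to 27.2 in control, 7.91 to 13.9 with IL-4, 19.1 to 24.2 with IL-4/IL-6, 18.7 to 24.1 with IL-13 and 41.1 to 42.1 with IL-13/IL-6, and that of 4 eosinophil genes was 28.8 to 33.6 in control, 32.0 to 35.5 with IL-4, 42.9 to 43.4 with IL-4/IL-6, 20.9 to 24.9 with IL-13, below every control library, and 66.2 to 79.1 with IL-13/IL-6, where Ccr3 was higher with IL-4 (4.69, SE 0.156, adjusted p = 1.34e-13) and the other 3 genes were lower. The part of these cells in the falls was not tested, and in bulk RNA fewer cells of a type and less RNA per cell cannot be told apart. Il1rl1 is also known as a marker of mast cells and of innate lymphoid cells. With IL-4, where it was highest, 8 of the 9 mast cell and basophil genes were at 3 counts or fewer per library, 2 of which had no count in control either. The remaining one, Gata2, was at 1.83 CPM on average with IL-4 against 2.40 in control (-0.39, SE 0.297, adjusted p = 0.256), and it fell when IL-6 was added to IL-4 (-3.07, SE 0.434, adjusted p = 1.85e-05), in the direction of Il1rl1. With IL-13 it fell (-1.33, SE 0.322, adjusted p = 0.00183), against the rise of Il1rl1, and IL-6 on IL-13 gave -0.85 (SE 0.397, adjusted p = 0.136). Of 7 T cell and innate lymphoid cell genes, 4 were at 3 counts or fewer with IL-4 and 5 in control. Their sum was 320 to 333 CPM in control and 187 to 195 with IL-4 and came mostly from Il7r, which fell with IL-6 on IL-4 (-0.91, SE 0.0641, adjusted p = 3.71e-09) and on IL-13 (-0.77, SE 0.0636, adjusted p = 5.47e-08). Rora, the other gene of that list that was tested, was higher with IL-6 on IL-4 (0.63, SE 0.229, adjusted p = 0.0375), a call lost in many other settings (adjusted p up to 0.372, and 0.33 on the log2 scale without IL-4/IL-6 replicate 3), and was at -0.18 on IL-13 (SE 0.219, adjusted p = 0.613). The part of such cells in the levels of Il1rl1 was not tested.

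The next comparisons ask what IL-6 added to IL-4 or to IL-13. On IL-4, 3 of the 6 tested genes rose and 0 fell, beside 39.4% of all tested genes called (20.7% higher and 18.7% lower). On IL-13 the numbers were again 3 and 0 of 6, beside 25.6% (12.1% higher and 13.5% lower). Il1rap, Il1rl2 and Il1rn were the 3 in both. Of all tested genes, 46.7% did not overlap between the groups on IL-4 and 37.7% on IL-13. Il1r1 and Il1rl1, which had both risen with IL-4 and IL-13, parted.

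Il1r1 went from 4.81, 5.70 and 4.20 CPM with IL-4 to 56.6, 49.5 and 60.5 once IL-6 was added, which is 3.50 on the log2 scale (SE 0.138), or 11.3-fold. On IL-13 it went from 1.07, 1.74 and 1.70 to 4.16, 4.34 and 4.45, which is 1.52 on the log2 scale (SE 0.189), or 2.86-fold. Every library with IL-6 was above every library of the matching group without it, and the libraries of IL-13/IL-6 overlapped those of IL-4 alone. The difference between the log2 effects on IL-13 and on IL-4 was -1.98 (SE 0.245), and from control to IL-4/IL-6 the log2 fold change was 6.61 (SE 0.187).

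Il1rl1 went from 53.6, 54.2 and 58.3 CPM with IL-4 down to 2.89, 5.36 and 5.47 once IL-6 was added, which is -3.60 on the log2 scale (SE 0.260), or 12.1-fold lower. On IL-13 it went from 10.8, 16.5 and 14.5 to 1.79, 5.48 and 2.50, which is -2.08 (SE 0.279), or 4.24-fold lower. Without IL-13/IL-6 replicate 2, the library at 5.48, that value was -2.70. The 2 combinations overlapped each other, and both stayed above control, by 1.86 (SE 0.367) and 1.38 (SE 0.384) on the log2 scale. The latter was 0.78 without IL-13/IL-6 replicate 2. The difference between the log2 effects on IL-13 and on IL-4 was 1.51 (SE 0.389), and 0.92 without that library.

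A transcript of unknown coding status, Gm38070, is annotated inside Il1r1 on the same strand. It had 39, 28 and 20 counts in the IL-4/IL-6 libraries, 0 in every control, IL-4 and IL-13 library, and at most 2 with IL-13/IL-6. It was therefore at least 10.2-fold higher with IL-4/IL-6 than with IL-4, in the group where Il1r1 was highest, and its counts are small beside the 840 to 1051 of Il1r1 there.

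Il1rap rose from 19.6, 20.1 and 20.0 CPM to 57.4, 46.0 and 51.2 on IL-4 and from 14.7, 18.8 and 14.6 to 30.4, 32.6 and 30.2 on IL-13, with no overlap. The log2 fold changes were 1.37 (SE 0.113, adjusted p = 2.53e-08) and 0.96 (SE 0.115, adjusted p = 5.53e-06). Il1rl2 rose from 24.1, 22.4 and 24.1 CPM to 52.1, 38.9 and 53.0 on IL-4 and from 8.72, 11.3 and 11.3 to 18.6, 19.7 and 19.1 on IL-13, also without overlap. Its log2 fold changes were 1.03 (SE 0.112, adjusted p = 8.68e-07) and 0.87 (SE 0.123, adjusted p = 3.05e-05).

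Il1rn rose from 7.33, 6.69 and 9.16 CPM to 10.995, 11.4 and 11.1 on IL-4, where the groups did not overlap, with a log2 fold change of 0.53 (SE 0.152, adjusted p = 0.01). That call was lost without IL-4 replicate 2 (0.41, adjusted p = 0.0705). On IL-13 it rose from 10.7, 12.6 and 10.3 to 22.1, 19.8 and 28.9, by 1.08 (SE 0.142, adjusted p = 1.49e-05). IL-13/IL-6 was thus the group with the most Il1rn, above control by 0.86 (SE 0.140, adjusted p = 4.5e-05) and above IL-4/IL-6 by 1.08 (SE 0.142, adjusted p = 1.7e-05).

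No ligand passed the test with IL-6. Il18 was at 2.27, 2.83 and 2.59 CPM with IL-4/IL-6 and at 4.22, 4.66 and 5.17 with IL-13/IL-6. Both groups overlapped their partners without IL-6, with log2 fold changes of -0.21 (SE 0.163, adjusted p = 0.341) and 0.24 (SE 0.146, adjusted p = 0.261). Il1a was at 0.227, 0.177 and 1.38 CPM with IL-4/IL-6 and 1.10, 0.651 and 2.22 with IL-13/IL-6, and its log2 fold changes were -0.39 (SE 0.657, adjusted p = 0.688) and 0.71 (SE 0.564, adjusted p = 0.419). Without IL-4/IL-6 replicate 3, the library at 1.38, the former was -1.93 (adjusted p = 0.0453), and without IL-4 replicate 3 it was 0.26 (adjusted p = 0.836). For Il1b they were 0.35 (SE 1.04, adjusted p = 0.824) and 1.54 (SE 0.967, adjusted p = 0.286), and both changed direction when 1 library was left out. The former was -1.37 without IL-4/IL-6 replicate 3 (adjusted p = 0.434) and the latter -0.20 without IL-13/IL-6 replicate 3 (adjusted p = 0.939).

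Whether the IL-6 effect differed between the 2 backgrounds was tested for the 6 genes other than Il1r1 and Il1rl1. None passed in edgeR, and none in DESeq2, beside 7.64% of all genes tested (4.42% higher and 3.22% lower). Il1rap and Il1rn were the 2 with an unadjusted p under 0.05. The difference was -0.42 for Il1rap (SE 0.160, adjusted p = 0.152 in edgeR) and 0.54 for Il1rn (SE 0.208, adjusted p = 0.147 in edgeR). Without IL-4/IL-6 replicate 2 the adjusted p of Il1rap was 0.0484.

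**Figure D3:**
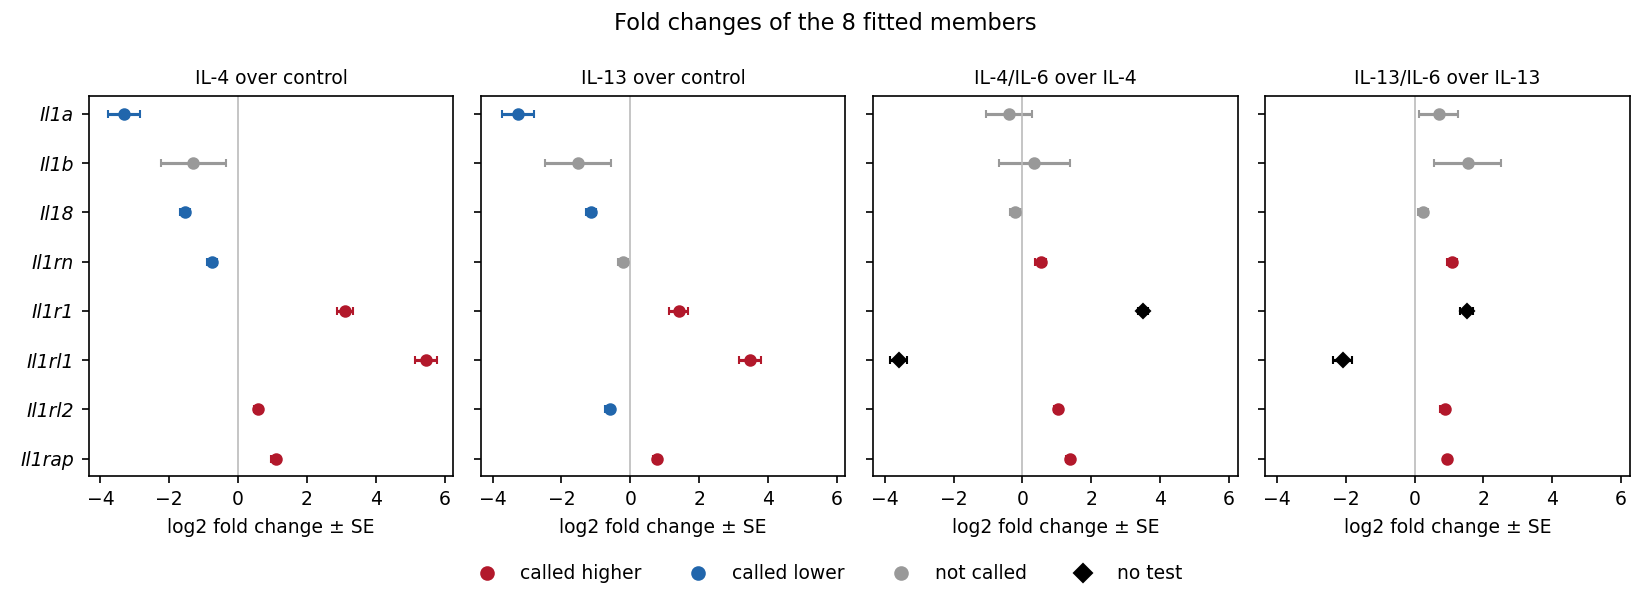
Log2 fold changes (horizontal axis, bars are 1 SE) of the 8 fitted genes in 4 comparisons, colored by call at an adjusted p under 0.05, with diamonds for Il1r1 and Il1rl1 in the IL-6 comparisons, which carry no test. Il1rap lies right of 0 in all 4 panels, and Il1r1 and Il1rl1 lie on the same side with IL-4 or IL-13 and on opposite sides with IL-6.

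Against control, 2 of the 6 tested genes were higher and 2 lower in each combination, beside 72.9% of all tested genes with IL-4/IL-6 (35.4% higher and 37.5% lower) and 64% with IL-13/IL-6 (31.9% higher and 32.1% lower). Groups did not overlap for 74.3% and 73% of them. Il1rap was raised in both, by 2.46 (SE 0.121, adjusted p = 7.87e-12) and 1.73 (SE 0.122, adjusted p = 1.47e-09), and Il1a and Il18 stayed lower in both. Il1rl2 was raised with IL-4/IL-6 by 1.60 (SE 0.115, adjusted p = 1.31e-09). With IL-13/IL-6 its 3 libraries lay above the controls and the difference of 0.28 (SE 0.118) was just short of a call (adjusted p = 0.0506). Leaving out any single IL-4 or IL-4/IL-6 library, or IL-13 replicate 1, brought it to an adjusted p between 0.00669 and 0.0454. It was called as well with only the groups compared (adjusted p = 0.0114), voom (0.0138), no filter (0.0101) or minimum count 30 (0.0477). Between the combinations, IL-13/IL-6 had less Il1rl2 (-1.33, SE 0.114, adjusted p = 1.04e-07) and Il1rap (-0.73, SE 0.109, adjusted p = 6.4e-05) and more Il1rn and Il18 (0.87, SE 0.155, adjusted p = 0.000347), 4 of 6 tested beside 31.3% of all genes (15.5% higher and 15.8% lower, and 39.3% without overlap). Il1a was not called there (1.14, SE 0.605, adjusted p = 0.166) and was without IL-4/IL-6 replicate 3 (2.68, adjusted p = 0.00502).

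The position of the receptor genes was not used to choose them. Within 500 kb of the receptor cluster 27 genes are annotated and 10 were tested, 7 of them outside the list. When IL-6 was added to IL-4, 3 of those 7 were higher and 3 lower, beside 20.7% and 18.7% of all tested genes. The 3 higher genes include Gm38070, which passed the filter only through its IL-4/IL-6 counts and so had to be higher. In map order Creg2 fell (-1.43, SE 0.148, adjusted p = 4.58e-07), the kinase gene Map4k4 rose (1.80, SE 0.0904, adjusted p = 4.4e-11), Il1r1 and Il1rl2 were higher, and then Il1rl1, Il18rap (-2.84, SE 0.194, adjusted p = 2.49e-09) and the ion exchanger gene Slc9a4 (-2.05, SE 0.466, adjusted p = 0.00185) were lower. Beyond them Slc9a2, of the same exchanger family, rose (2.59, SE 0.177, adjusted p = 2.53e-09). The direction thus changed more than once along the map. On IL-13, Map4k4 (1.09, SE 0.0889, adjusted p = 4.86e-08) and Slc9a2 (4.51, SE 0.240, adjusted p = 1.76e-10) rose with IL-6 as well, and Creg2 fell (-0.64, SE 0.123, adjusted p = 0.000767). Slc9a4 also fell there (-1.66, SE 0.500, adjusted p = 0.0201), a call lost without IL-13 replicate 2 or 3 or IL-13/IL-6 replicate 1 or 2 (adjusted p from 0.0654 to 0.0882).

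**Figure D4:**
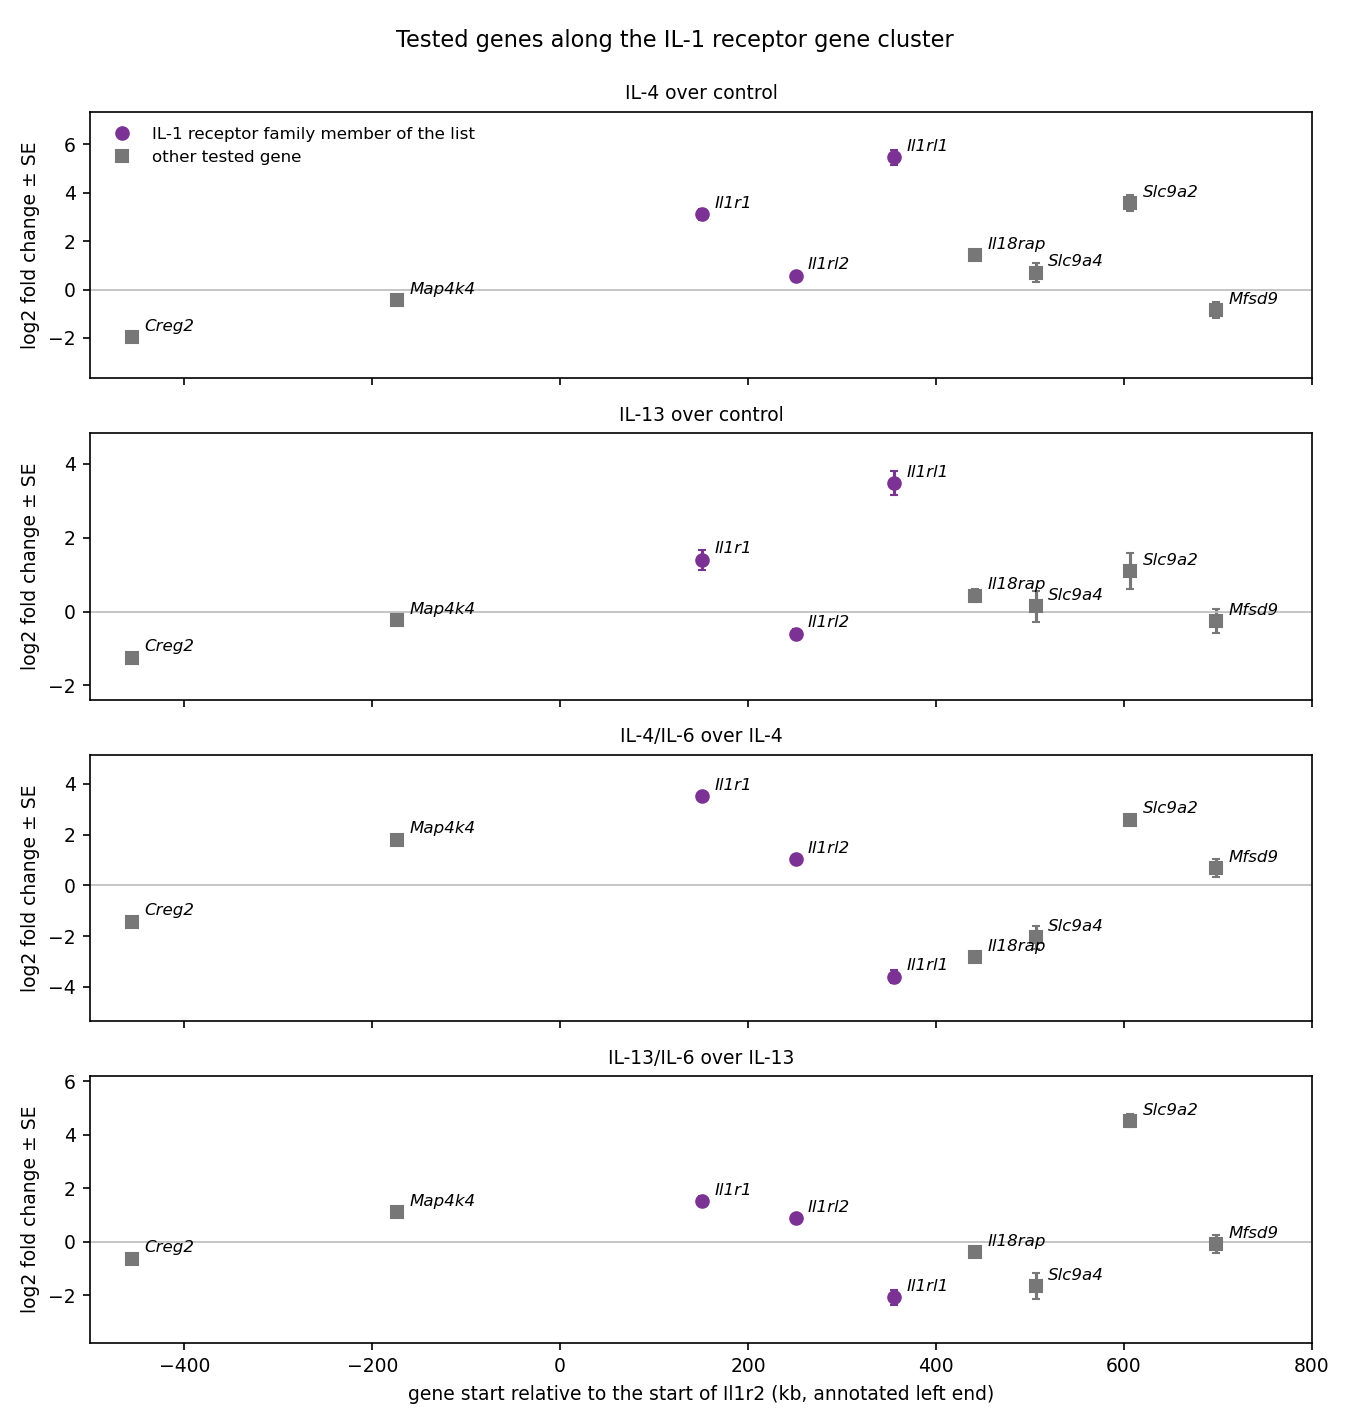
Log2 fold change (vertical, bars are 1 SE, scales differ between panels) of the tested genes around the receptor cluster against the distance of their annotated left end from that of Il1r2 in kb, for 4 comparisons; Gm38070 is not drawn. With IL-6 on IL-4, Map4k4, Il1r1 and Il1rl2 lie above 0 and the next 3 genes, Il1rl1, Il18rap and Slc9a4, lie below it.

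Il18rap, the accessory chain of the IL-18 receptor and a neighbour of Il1rl1, shared its rise with IL-4 and its lower level when IL-6 was added to IL-4. It was at 5.78, 5.54 and 5.72 CPM in control, 14.9, 15.2 and 15.2 with IL-4, 1.36, 2.12 and 2.82 with IL-4/IL-6, 7.12, 8.67 and 7.26 with IL-13 and 4.91, 7.26 and 5.34 with IL-13/IL-6. The IL-4 libraries were the highest and the IL-4/IL-6 libraries the lowest, without overlap with any other group. The rise with IL-4 was 1.41 (SE 0.169, adjusted p = 1.33e-06). With IL-4/IL-6 it was below control (-1.43, SE 0.207, adjusted p = 8.75e-06), where Il1rl1 was above it. With IL-13 it was 0.43 (SE 0.176, adjusted p = 0.0424), a call lost without any 1 control library or without IL-13 replicate 2 or 3 (adjusted p from 0.0505 to 0.131). IL-6 on IL-13 gave -0.39 (SE 0.176, adjusted p = 0.121), which was -0.59 without IL-13/IL-6 replicate 2 (adjusted p = 0.0312). Its partner chain Il18r1 had at most 9 counts in any library.

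Il18bp, a secreted protein that captures IL-18, and Sigirr, an inhibitory receptor of the family, both fell with IL-4 and IL-13. Il18bp went from 13.0, 12.8 and 12.8 CPM in control to 4.65, 4.43 and 4.09 with IL-4 and 3.69, 3.49 and 4.63 with IL-13, and was back at 11.8, 14.0 and 11.7 with IL-4/IL-6 and 11.9, 10.9 and 14.8 with IL-13/IL-6. Its log2 fold changes were -1.55 (SE 0.142, adjusted p = 4.6e-08) and -1.70 (SE 0.143, adjusted p = 2.16e-08) over control, and 1.51 (SE 0.142, adjusted p = 1.48e-07) and 1.66 (SE 0.144, adjusted p = 9.6e-08) with IL-6. Sigirr fell by 1.59 with IL-4 (SE 0.232, adjusted p = 1.27e-05) and by 1.78 with IL-13 (SE 0.236, adjusted p = 5.47e-06).

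Downstream of the receptors, 17 signaling genes were all tested. IL-4 lowered 11 and raised 0 (35.9% and 32.1% over all genes), with a median log2 fold change of -0.44 beside -0.05 over all genes, and IL-13 lowered 11 and raised 1 (31.1% and 29% over all genes, median -0.32 beside -0.02). Among them were Peli2, a ubiquitin ligase of the receptor complex (-4.14, SE 0.228, adjusted p = 6.39e-11, with IL-4), Irak3, an inhibitory kinase of the pathway (-1.75, SE 0.0944, adjusted p = 4.91e-11), and Irak2 (-1.40, SE 0.0940, adjusted p = 8.16e-10). With IL-6, 6 were higher and 7 lower on IL-4, beside 20.7% and 18.7% of all tested genes, and 4 were higher and 3 lower on IL-13, beside 12.1% and 13.5%. The adaptor Myd88 rose on both (0.92, SE 0.0747, adjusted p = 2.34e-08, and 1.18, SE 0.0743, adjusted p = 1.72e-09), as did Tollip (0.79, SE 0.0623, adjusted p = 1.65e-08, and 0.40, SE 0.0622, adjusted p = 0.000102). Irak2 fell on both, by 1.22 (SE 0.103, adjusted p = 3.4e-08) and by 0.93 (SE 0.0975, adjusted p = 9.57e-07).

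Of 13 inflammasome and processing genes, IL-4 lowered 9 and raised 2, and IL-13 lowered 8 and raised 3, where 35.9% and 32.1% of all tested genes were lower and higher with IL-4 and 31.1% and 29% with IL-13. The lowered genes include Elane, Prtn3 and Ctsg, granule proteases of neutrophils that can cut IL-1 cytokines, and Elane and Ctsg had at most 4 counts per library with IL-4 or IL-13. These 2 passed the filter through the control libraries and so had to be lower, and their calls say nothing about the list. Casp1 rose with both cytokines (0.44, SE 0.0769, adjusted p = 9.06e-05 with IL-4, and 0.44, SE 0.0769, adjusted p = 9.9e-05 with IL-13). Nlrp3, the sensor of the best known inflammasome, fell with IL-4 (-1.26, SE 0.108, adjusted p = 1.97e-08) and again when IL-6 was added to it (-1.56, SE 0.125, adjusted p = 1.8e-08). With IL-13 it was at -0.24 (SE 0.103, adjusted p = 0.0504), not called, and it fell when IL-6 was added to IL-13 (-0.82, SE 0.107, adjusted p = 1.31e-05). The value with IL-13 was called lower with DESeq2 (adjusted p = 0.0191), upper-quartile scaling (0.0434), only the groups compared (0.0219) or voom (0.0109). It was also called without IL-4/IL-6 replicate 2 (0.0352) or 3 (0.0218). With IL-6, 1 rose and 6 fell on IL-4 (20.7% and 18.7% over all genes), and 2 rose and 3 fell on IL-13 (12.1% and 13.5%). Casp4, the mouse caspase-11, rose on both (0.92, SE 0.119, adjusted p = 6.34e-06, and 1.13, SE 0.115, adjusted p = 7.1e-07).

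Of 13 listed genes that IL-1 is known to induce, 11 were tested. IL-4 raised 4 and lowered 5, IL-13 raised 3 and lowered 5, and IL-6 raised 6 and lowered 2 on IL-4 and raised 5 and lowered 1 on IL-13. Over all tested genes the shares raised and lowered were 32.1% and 35.9% with IL-4, 29% and 31.1% with IL-13, 20.7% and 18.7% with IL-6 on IL-4, and 12.1% and 13.5% with IL-6 on IL-13, so the counts with IL-4 and IL-13 alone were near the background. The chemokine gene Ccl2 rose in all 4 comparisons, by 5.64 with IL-4 (SE 0.143, adjusted p = 7.34e-15) and by 2.93 when IL-6 was added to it (SE 0.116, adjusted p = 2.01e-12). Nfkbiz, a nuclear regulator of NF-kB targets, fell with IL-4 (-3.24, SE 0.167, adjusted p = 2.72e-11) and IL-13 (-1.73, SE 0.146, adjusted p = 2.25e-08). It rose with IL-6 on IL-13 (0.90, SE 0.149, adjusted p = 0.00017), and on IL-4 its value of 0.50 (SE 0.194, adjusted p = 0.0496) lost its call in most other settings (adjusted p up to 0.269).

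**Figure D5:**
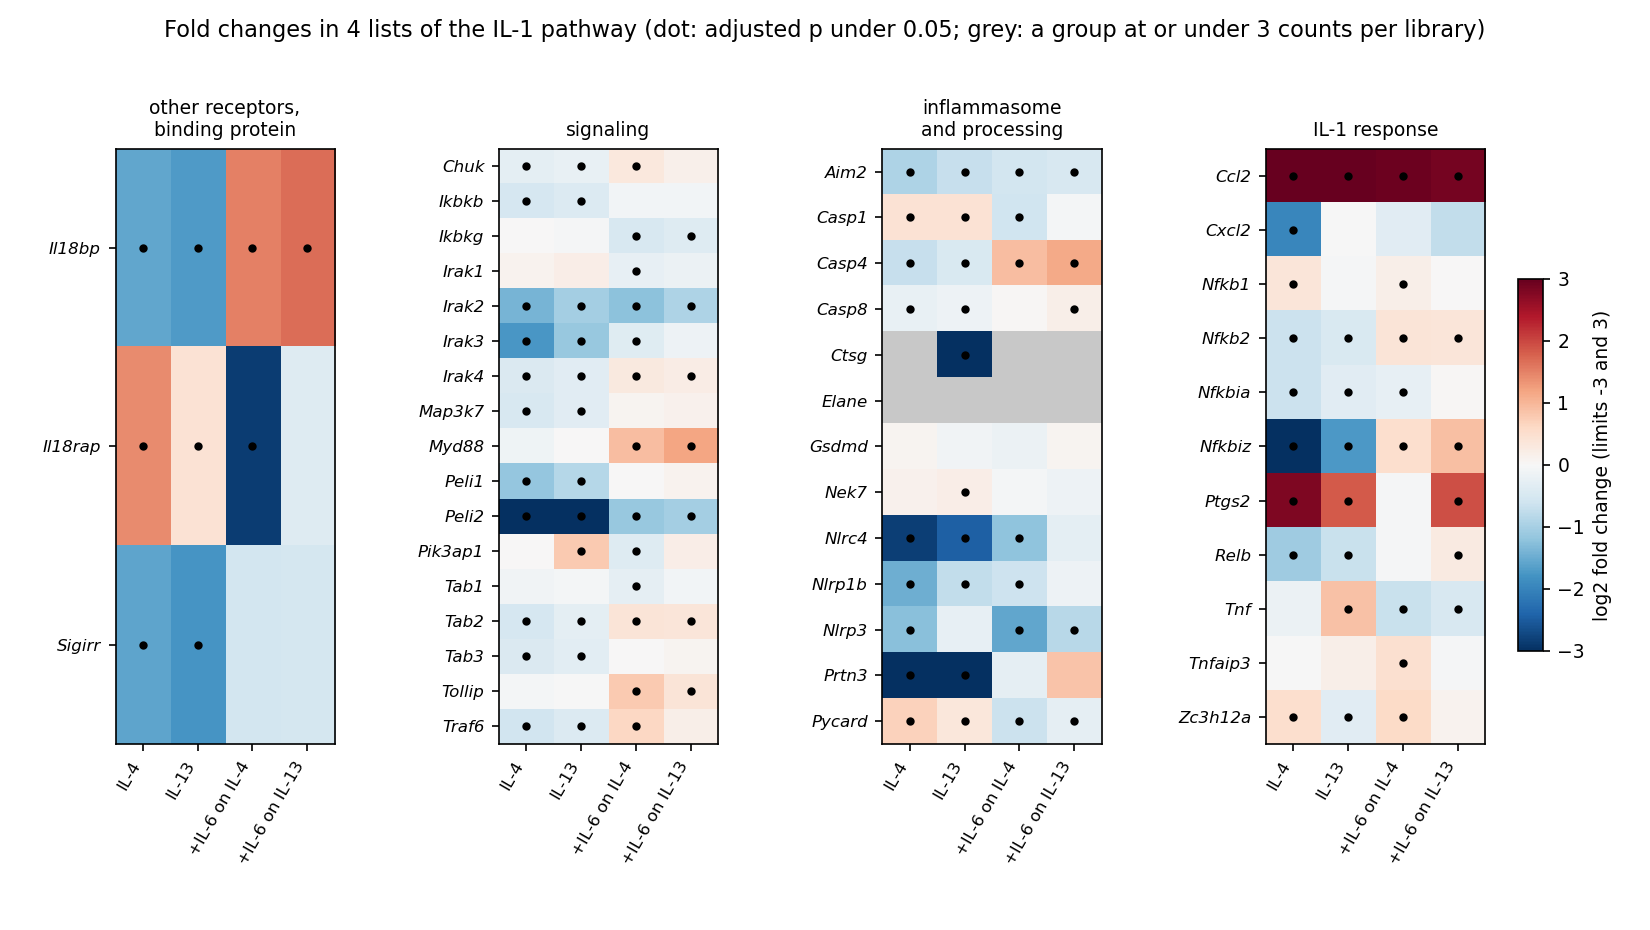
Log2 fold change (color, limited to -3 and 3) of the tested genes of 4 lists of the IL-1 pathway in 4 comparisons, with a dot for an adjusted p under 0.05 and grey where a group compared had 3 counts or fewer in each library. Il18bp is lowered with IL-4 and IL-13 and raised by IL-6 on each, and Il18rap is raised with IL-4 and lowered when IL-6 is added to it.

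The genes whose log2 CPM over the 15 libraries was most like that of Il1r1 were Stt3b (Pearson r 0.989), Brwd1 (0.987), Rps6kc1 (0.986), Btbd19 (0.984) and Cd200r1 (0.981). For Il1rl1 they were Egr2 (0.981), Ocstamp (0.979), Appl1 (0.968), Fzd7 (0.968) and Phldb1 (0.961). Within the list, Il1r1 was most like Il1rap (0.938) and Il1rl2 (0.887), and its r with Il1rl1 was 0.158. Il1a was most like Il18 (0.870). Il1rap was led by Timp2 (0.992), Il1rl2 by Oxct1 (0.969), Il1rn by Fdps (0.946), Il1a by Acod1 (0.953), Il1b by Ccl5 (0.849) and Il18 by Acp2 (0.973). These are descriptions over 5 groups of 3 libraries that share their scaling, so they mostly compare group means.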

How the data were processed

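RNA-seq was made from 15 libraries, and the authors deposited raw read counts per Ensembl gene for all libraries and FPKM per gene for each; FPKM was used only for levels between genes. The submitters' processing notes name CASAVA, Bowtie2 2.2.3, TopHat2, HISAT2 2.1.0, DESeq2 and GRCm38, without their roles, and strand and counter are not given in the sources used here. The members and lists were chosen with earlier results of these data known. Groups came from the sample titles. In R 4.3.3, edgeR 4.0.16 fitted 1 quasi-likelihood model of the 5 groups to all 15 libraries (TMM, filterByExpr with minimum count 10, 13938 genes). Calls needed a Benjamini-Hochberg adjusted p under 0.05 over all tested genes; SE is the absolute log2 fold change over the square root of F. The test was checked on simulated counts. Examples from the lists were picked after their values were seen. Named genes were the 9 members, the genes of the listed pathways, cell markers and neighbourhoods (500 kb), overlapping genes, 3 treatment checks, and the 5 (Il1r1, Il1rl1) or 3 closest genes by correlation of log2 CPM (prior count 2). Library totals of 17001352 to 18918686 counts leave Il1b and Il1r2 near the floor of 3 counts per library. Alternatives were DESeq2 1.42.0, upper-quartile scaling, no filter, minimum count 30, a replicate block, fewer groups, voom with quality weights (limma 3.58.1) and each library left out; without all replicate 3 libraries, and Il1r1 with Gm38070 counts added, were chosen after seeing the data. Of 10 listed ligand symbols, 6 are in the matrix; Il36a, Il36b, Il36g and Il36rn stand there under older names. Promoter sequences and start sites are from RefSeq. The genotype of the mice is not reported here.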

Additional observations from a re-analysis of the deposited data

Results flagged for a closer look

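No sample was tested as an outlier, since groups hold 3 libraries. The IL-6 effect differed between the IL-13 and IL-4 backgrounds, by the interaction term of the edgeR fit, for 9 listed genes of the pathway, beside 7.64% of all tested genes: 1 of 3 tested receptors and binding proteins, 2 of 17 signaling genes, 3 of 13 inflammasome genes and 3 of 11 response genes. Among the 13, Ctsg had at most 4 counts in any treated library, and Elane at most 2 outside IL-13/IL-6, where 1 library had 11. The 1 tested ligand of the list is left out of these counts, since it was at 0 to 2 counts in every treated library. The largest was Il18rap, where the effect on IL-13 minus that on IL-4 was 2.45 on the log2 scale (adjusted p = 1.24e-05), the libraries on IL-4 falling from 14.9 to 15.2 CPM without IL-6 to between 1.36 and 2.82 with it. Ptgs2 followed at 1.96 (adjusted p = 0.0152, and 0.0624 without IL-4 replicate 3), then Nlrc4 at 0.92 (0.0207, lost without IL-4 replicate 3, IL-4/IL-6 replicate 3, IL-13 replicate 3 or IL-13/IL-6 replicate 2, at 0.0622, 0.0516, 0.0514 and 0.0589), Nlrp3 at 0.74 (0.00833) and Casp1 at 0.55 (0.00347). The difference was negative for Tnfaip3 (-0.51, adjusted p = 0.00971), Traf6 (-0.46, 0.0358), Zc3h12a (-0.46, 0.042) and Tollip (-0.39, 0.00903). The Traf6 and Zc3h12a calls were lost when most single libraries were left out, at adjusted p up to 0.123 and 0.147. Both were also lost with upper-quartile scaling, no filter, a higher minimum count, only the groups compared or voom (0.0509 to 0.0861). Nlrc4 was lost with only the groups compared (0.0524) or voom (0.149), and Tollip with no filter (0.0721). Leaving out all replicate 3 libraries was chosen after seeing the data. There Ptgs2 (0.0794), Casp1 (0.167), Tollip (0.225), Nlrc4 (0.261), Tnfaip3 (0.264), Traf6 and Zc3h12a (both 0.381) lost their calls.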

How the results depend on the processing

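Of the counts of called members, all kept their value within 1.5 times but 1: without IL-4/IL-6 replicate 2 the count of members with a differing IL-6 effect was 1 and not 0, and over the single libraries left out it ranged from 0 to 1. Over all members and settings, 1679 values kept direction and call, 27 gained a call, 4 lost it, 5 untested values moved beyond the replicate spread, and 25 changed direction, all of Il1a or Il1b; the cause was not tested. With single libraries left out, Il1a ranged from -1.93 to 0.26 for IL-6 on IL-4 and from -0.30 to 0.71 for IL-13 over IL-4. Il1b ranged from -1.37 to 1.76 for IL-6 on IL-4, from -0.20 to 2.16 for IL-6 on IL-13, from -1.68 to 0.60 for IL-13/IL-6 over control, from -0.84 to 1.21 for IL-13 over IL-4, from -0.76 to 2.68 for IL-13/IL-6 over IL-4/IL-6 and from -0.53 to 2.90 for the difference of the IL-6 effects. Without all replicate 3 libraries, IL-6 on IL-13 gave -0.11 for Il1a and -0.68 for Il1b, and Il1b was at -1.86 in IL-13/IL-6 over control (adjusted p = 0.0313), 1.69 in IL-13 over IL-4 and -0.74 for the difference. Il1b in IL-13/IL-6 over control, 0.02 as reported, was -0.026 with upper-quartile scaling and -1.18 with voom. Rora with IL-6 on IL-13 ranged from -0.37 to 0.048. Of the listed genes without a printed value, 270 of 10454 values changed direction, 0 of them called in either setting. With no filter on low counts, Il1b was called with IL-4 (-1.22, adjusted p = 0.0115), with IL-13 (-1.46, 0.00287) and with IL-6 on IL-13 (1.56, 0.00343), and DESeq2 did not call the first (0.34). The number of all genes called between IL-13 and IL-4 was 1779, and 1088 to 2915 with single libraries left out (639 without all replicate 3 libraries, which also gave 2137 for IL-6 on IL-13, from 3563, and 417 for the difference of the IL-6 effects, from 1065); with only the groups compared, IL-13/IL-6 over IL-4/IL-6 gave 2900, from 4368. No pairing by replicate number was seen across the groups, with same-number correlations of deviations between -0.276 and 0.163. Only control and IL-4/IL-6 had all 3 libraries closest to their own number. With 3 libraries per group, these correlations cannot tell whether same-numbered libraries shared an animal or a preparation. The replicate block left 0 members with a differing IL-6 effect, called 5228 and not 5488 genes for IL-6 on IL-4, and changed no member's call; it turned Il1b to -0.43 in IL-13/IL-6 over control and 0.11 in IL-13 over IL-4. Adding the Gm38070 counts to Il1r1 changed no call. This could not test the calls of Il1r1, since Gm38070 had no count in the control, IL-4 and IL-13 libraries compared there. Depth limits Il1b, Il1a and Il1r2 in the treated groups.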
